A study of Mus musculus with 31 samples.

Results

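At 12 h, 2 sets of 2-colour arrays of the neonatal mouse forebrain were set against each other. The first set compared hypoxia-ischemia (HI) with control mice on 3 arrays, and the second compared magnesium sulfate (MgSO4) with control mice on 4 arrays. These 7 arrays, of 31 in the series, were chosen by their titles (RV PBS 12h and Mg 12h). On every one of them the treated sample carried Cy5 and the control sample Cy3, so each array gave a log2 ratio of treated over control for each gene. The quantity of interest was the mean log2 ratio of the HI arrays minus that of the MgSO4 arrays, in which a bias of a probe toward one dye cancels because the orientation was the same.

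All mice were of the NMRI strain and were treated at 5 days of age. HI mice underwent a permanent ligature of the right carotid artery, then hypoxia, and tissue was taken 12 h after hypoxia ended. For their Cy5 samples a treatment label named MgSO4, against the title, the source name and the methods, which were followed here. MgSO4 mice received 600 mg/kg once, without HI, and tissue was taken 12 h after the injection. The injection was subcutaneous in the labels and intraperitoneal in the methods. Controls of both sets were naive mice by their source name and in the methods, while a treatment label gave PBS. Each sample was RNA pooled from 6 mice, 3 males and 3 females, and came from forebrain hemispheres without the olfactory bulb, on the ligated side in HI mice. According to the methods the controls of the 2 sets came from their own litters and were prepared separately. The replicates were pools labelled as biological replicates, and p-values refer to the spread between such pools.

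HI in the newborn combines loss of blood flow with low oxygen. The injured tissue is known for early release of chemokines, small secreted proteins that attract leukocytes, by microglia, astrocytes and vessel cells. Interferon-induced genes and genes of reactive astrocytes are known to follow, and reactive astrocytes are recognized by the intermediate filament protein Gfap. MgSO4 is given before preterm birth as a neuroprotectant, and magnesium ions block the channel of NMDA-type glutamate receptors.

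The HI replicates did not form a tight group, and neither did the MgSO4 replicates. Across the 14750 genes tested, log2 ratios of pairs of HI arrays correlated at Pearson's r of 0.265 to 0.678, and those of pairs of MgSO4 arrays at -0.117 to 0.534. Pairs of one HI and one MgSO4 array ranged from -0.178 to 0.636, the highest being HI replicate 1 with MgSO4 replicate 4. Correlations over genes are descriptions, since genes share the array and its dyes. MgSO4 replicate 2 stood apart, with correlations from -0.178 to 0.056 with the other 6 arrays. The HI arrays were on 2 slides scanned on the same day, whereas each MgSO4 array was on a slide and a day of its own, so that scan day and group cannot be told apart. Between 52.3% and 66.5% of probes were well above background in a channel, as flagged by the image extraction software, and no spot was saturated. The number of arrays limits the precision.

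Genes with a higher ratio after HI than after MgSO4 were 3 chemokines (Cxcl10, Ccl4 and Ccl3), the interferon-induced genes Gbp2 and Ifi202b, the endotoxin co-receptor Cd14 and the astrocyte filament gene Gfap. These 7 genes rose after HI relative to MgSO4 at an adjusted p under 0.05 and a difference of at least 1.5-fold (limma, Benjamini-Hochberg), or 0.0475% of the genes tested. No gene was lower by the same criteria (0% of genes). With an unadjusted p under 0.05 and the same fold, 402 genes were higher (2.73%) and 424 were lower (2.87%), and 1803 genes had such a p at any fold. The ratios of the HI arrays all lay above those of the MgSO4 arrays for 859 genes (5.82%) and all below them for 1171 genes (7.94%). These shares over all genes are the background for the counts within lists given below, in which the unadjusted p goes with the same fold. The median difference over all genes was -0.039 on the log2 scale. With a plain t-test between the 2 groups, adjusted for multiple testing, 2 genes were higher and 2 lower, 1 of them among the 7. The methods test each experiment against 0 and state no test between experiments. These are pools of whole hemispheres, in which a change in the number of cells of a type and a change of RNA per cell cannot be told apart.

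The count of called genes depended on single arrays and on the background correction. Without HI replicate 2 or without MgSO4 replicate 1 no gene was called, without MgSO4 replicate 2 or 3 there were 2, and without HI replicate 1 there were 12. When the background was modelled by normexp on the median signals, 81 genes were higher and 39 lower, and without background subtraction 19 were higher and 8 lower. All 7 genes were among those called under both of these settings, with smaller differences. With normexp these ran from 1.14 (Ifi202b) to 2.30 (Cxcl10). Ccl4 differed by 2.24 with normexp and by 2.82 without background subtraction, against 4.35 on the processed signals, and Gbp2 and Cd14 by 1.31 and 1.20 with normexp against 2.34 and 2.47.

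**Figure D1:**
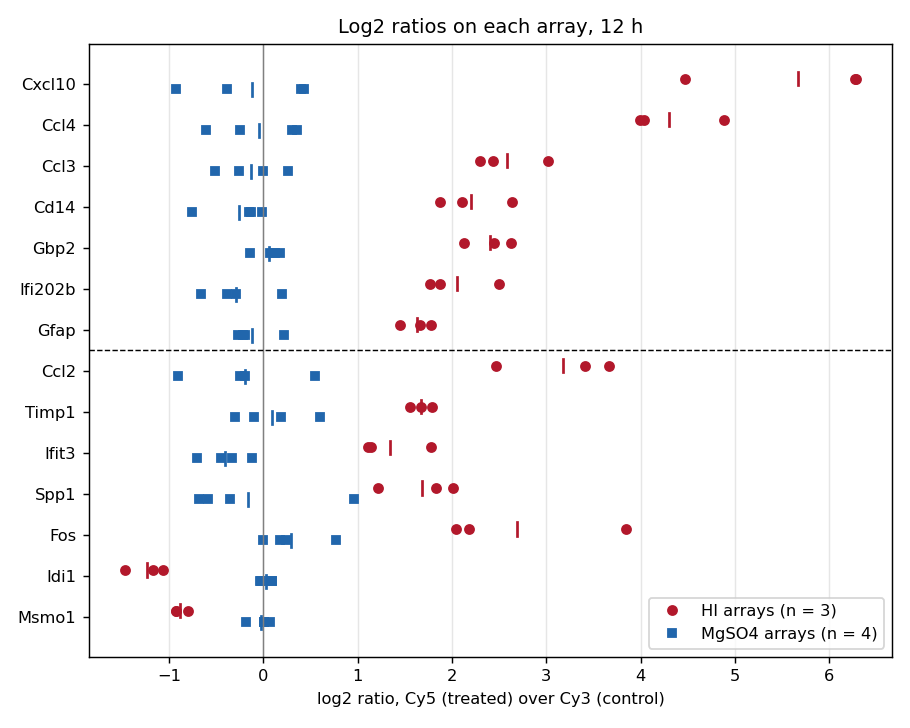
Log2 ratios of Cy5 (treated) over Cy3 (control) on each array, with HI arrays as red circles and MgSO4 arrays as blue squares and vertical ticks at the group means. The 7 genes above the dashed line were called higher after HI, and the lowest HI value among them was 1.45 (Gfap) and the highest MgSO4 value 0.43 (Cxcl10). Below the line, Idi1 and Msmo1 had negative ratios on the HI arrays.

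Among the chemokines, Cxcl10 attracts activated T cells through the receptor Cxcr3. In Cy5 its level in HI samples was at least 27.3-fold that of MgSO4 samples, a comparison between arrays that leaves out their controls. Its log2 ratios were 6.28, 6.27 and 4.47 on the HI arrays, and 0.40, -0.39, 0.43 and -0.93 on the MgSO4 arrays, a difference of 5.80 ± 0.52 (SE, adjusted p = 0.0210). The Cxcl10 probe was not well above background in either channel of any MgSO4 array, and its Cy3 signal was above it on 1 of the 3 HI arrays, so its MgSO4 ratios are ratios of background, and the fitted difference, its p and the call of Cxcl10 rest on them. Ccl4, a chemokine that attracts monocytes and T cells, had ratios of 4.04, 4.88 and 3.99 after HI and of 0.31, 0.36, -0.61 and -0.25 after MgSO4. The groups did not overlap, and the difference was 4.35 ± 0.32 (adjusted p = 0.00726), or 20.4-fold. Ccl3, a related attractant of monocytes, had ratios of 2.30, 3.02 and 2.43 against 0, -0.52, -0.26 and 0.26. Its difference was 2.71 ± 0.25 (adjusted p = 0.0210), with MgSO4 ratios on both sides of 0.

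The monocyte attractants of the Ccl2 cluster were high on the HI arrays too, but they did not pass the adjusted test in the main fit. Ccl2 had ratios of 2.46, 3.67 and 3.41 after HI and of -0.19, 0.54, -0.25 and -0.90 after MgSO4, a difference of 3.38 ± 0.39 (adjusted p = 0.0580). With probes well above background in both channels of all 7 arrays, Ccl2 was called (adjusted p = 0.02545). Ccl12 differed by 2.69 and Ccl7 by 2.94, and in both the lowest HI value was that of replicate 1. Ccl7 had an HI ratio of 1.31 in replicate 1 against 3.18 and 3.03 in the other replicates. The neutrophil attractant Cxcl1 differed by 2.41, and Ccl9 and Ccl6 by 2.46 and 1.65. Cxcl12, which retains progenitor cells, went the other way at -0.63, and 1 other probe of it had the opposite sign. Of 24 chemokines listed, 18 were tested, 3 were called higher and none lower. With the unadjusted p 10 were higher and 1 was lower, against 2.73% and 2.87% of all genes. In 10 of the 18 all HI ratios lay above all MgSO4 ratios, against 5.82% of all genes. The median difference of the list was 1.48, against -0.039 over all genes. Under the other processing of the ratios it ran from 0.53 to 1.75, with 0.68 by normexp, 0.81 without background subtraction and 0.53 with no filter on dim probes. It was also 0.53 when probes had to be well above background in both channels of all 7 arrays. A probe could enter the main test through the HI arrays alone, as that of Cxcl10 did. The median of 1.48 thus rests in part on members admitted because they were high after HI. By channel, the median difference of the list was 0.80 in Cy5 and -0.43 in Cy3, which held the controls. Ccl22, Cxcl2, Cxcl3 and Cxcl9 were not well above background in any channel of the 7 arrays.

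Interferon-induced genes encode antiviral effectors, guanylate-binding proteins and antigen-processing subunits, and many of them carry an interferon-stimulated response element in the promoter. Promoters are shown for Cxcl10, Gbp2, Ifit3 and Isg15, which were chosen after their values were seen and because each holds a match to the element. Others of the list whose HI arrays all lay above the MgSO4 arrays, such as Irf1, Irf8 and Oasl2, held none. The stretches run from 250 bases before to 50 bases after the start of transcription (RefSeq, GRCm38.p6), written 5′ to 3′ on the strand of the gene. Capitals mark GAAA, any 2 bases and GAAA again, on either strand, and in Isg15 matches overlap.
Cxcl10, chr5:92348840-92349139, minus strand: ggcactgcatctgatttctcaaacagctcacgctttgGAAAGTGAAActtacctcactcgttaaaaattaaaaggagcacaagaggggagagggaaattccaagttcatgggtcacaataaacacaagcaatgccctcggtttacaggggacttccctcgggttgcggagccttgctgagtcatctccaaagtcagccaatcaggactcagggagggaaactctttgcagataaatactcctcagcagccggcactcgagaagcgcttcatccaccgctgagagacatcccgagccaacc
Gbp2, chr3:142620413-142620712, plus strand: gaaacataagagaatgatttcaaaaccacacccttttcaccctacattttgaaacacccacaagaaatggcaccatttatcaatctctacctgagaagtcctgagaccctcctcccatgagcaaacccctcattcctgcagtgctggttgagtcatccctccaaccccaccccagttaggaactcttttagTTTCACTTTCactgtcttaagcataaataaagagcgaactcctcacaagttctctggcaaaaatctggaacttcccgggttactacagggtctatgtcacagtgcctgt
Ifit3, chr19:34583279-34583578, plus strand: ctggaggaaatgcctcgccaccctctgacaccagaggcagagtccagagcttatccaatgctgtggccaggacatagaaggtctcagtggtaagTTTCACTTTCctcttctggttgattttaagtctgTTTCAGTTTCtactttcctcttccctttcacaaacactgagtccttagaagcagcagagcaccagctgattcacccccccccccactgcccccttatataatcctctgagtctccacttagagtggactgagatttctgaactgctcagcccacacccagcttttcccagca
Isg15, chr4:156200769-156201068, minus strand: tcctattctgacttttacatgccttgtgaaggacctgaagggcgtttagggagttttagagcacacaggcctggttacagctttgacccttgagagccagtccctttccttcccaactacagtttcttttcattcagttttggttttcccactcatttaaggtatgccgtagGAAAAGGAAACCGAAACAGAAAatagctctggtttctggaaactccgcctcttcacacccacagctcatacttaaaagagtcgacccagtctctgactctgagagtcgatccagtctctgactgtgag
Cxcl10 and Gbp2 held 1 match each, Ifit3 2 and Isg15 3. Of 26 tested interferon-induced genes 20 had a promoter in the table, and 12 of these (60%) held the motif, against 3.44% of all 32851 promoters of the same length. Of the called genes 5 had a promoter in the table, and 2 (40%) held it. A second motif, GGG, any 2 bases and TTTCC, the core of an NF-kB site, was found in 2 of 11 chemokine promoters (18.2%) and in 1.63% of all. A match is a description of letters and not a measured binding site.

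Gbp2, a guanylate-binding protein of the interferon-gamma response, was even on both sets of arrays. Its log2 ratios were 2.13, 2.62 and 2.45 on the HI arrays and 0.18, 0.12, -0.14 and 0.07 on the MgSO4 arrays, a difference of 2.34 ± 0.17 (adjusted p = 0.00726), or 5.07-fold. Ifi202b, an interferon-induced DNA-binding protein of the p200 family that was not a member of the list, had ratios of 1.77, 2.50 and 1.88 against 0.20, -0.29, -0.66 and -0.39, a difference of 2.33 ± 0.26 (adjusted p = 0.0492). Its second tested probe differed in the same direction. Ifit3, which blocks translation of viral RNA, differed by 1.75 ± 0.22 (adjusted p = 0.0799), with HI ratios of 1.11, 1.78 and 1.14 and MgSO4 ratios from -0.70 to -0.13. Isg15, a ubiquitin-like modifier, had HI ratios of 0.26, 1.67 and 1.32 and differed by 1.74. Usp18, the protease that removes Isg15 from its targets, differed by 2.35, but its probe was not well above background in Cy5 on any MgSO4 array. In that channel its level was at least 4.24-fold higher in HI samples. Its Cy3 signal, compared alone, was also higher in the controls of the HI set, by 0.97 on the log2 scale. Gbp3 differed by 1.18 and Igtp by 1.05, whereas Stat2, a subunit of the factor that binds the element above, differed by -0.64. In all, 1 of the 26 genes was called higher and none lower, and with the unadjusted p 15 were higher and 1 was lower (against 2.73% and 2.87% of all genes). For 14 genes the HI arrays all lay above the MgSO4 arrays (against 5.82% of all genes), and the median difference of the list was 0.80. Under the other processing of the ratios this median ran from 0.30 with normexp to 0.94 with array weights, and it was 0.44 without background subtraction. It was 0.69 when probes had to be well above background in both channels of all 7 arrays. Usp18 entered the test through the HI arrays alone. The counts and the median of this list thus include a member admitted because it was high after HI.

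Of the markers of reactive astrocytes, Gfap and Cd14 rose after HI relative to MgSO4, and Cxcl10 is also counted among them. Gfap had ratios of 1.45, 1.66 and 1.78 on the HI arrays and of 0.21, -0.27, -0.22 and -0.19 on the MgSO4 arrays, a difference of 1.75 ± 0.17 (adjusted p = 0.0298), or 3.36-fold. All 3 of its probes had a positive difference, but only the brightest was called. The others differed by 1.49 and 0.97 (adjusted p = 0.258 and 0.292). Cd14, which binds endotoxin with Tlr4, had ratios of 1.87, 2.64 and 2.11 against -0.14, -0.012, -0.15 and -0.75, a difference of 2.47 ± 0.25 (adjusted p = 0.0298). The metalloproteinase inhibitor Timp1 was even on the HI arrays at 1.56, 1.79 and 1.67, and it differed by 1.58 ± 0.22 (adjusted p = 0.112). The surface protein Cd109 differed by 2.29, with a Cy3 signal above background on 1 HI array. Of the MgSO4 arrays, its probe was well above background on 2 in Cy5 and on 1 in Cy3. Its MgSO4 ratios ran from -1.22 to 1.52 and overlapped its HI ratios, the lowest of which was 1.39. The receptor S1pr3, the iron-siderophore carrier Lcn2 and the filament protein Vim differed by 1.28, 1.27 and 1.24. Of 23 tested genes of the list 3 were called higher (Cxcl10, Cd14 and Gfap), 14 were higher with the unadjusted p and none was lower. The median difference was 0.81, against 0.55 with normexp. It was 0.69 when probes had to be well above background in both channels of all 7 arrays. Cxcl10 and Cd109 entered the test through the HI arrays alone. The counts and the median of this list thus rest in part on members admitted because they were high after HI. By contrast, the 16 genes of astrocyte identity had a median difference of 0.023 and none passed either threshold. Among these, the calcium-binding protein S100b had ratios of -0.76, -0.72 and -0.42 after HI and a difference of -0.50, and the glycolytic enzyme Aldoc differed by -0.48, Mlc1 by 0.28 and the glutamate transporter Slc1a2, 1 of whose other probes had the opposite sign, by 0.24.

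**Figure D2:**
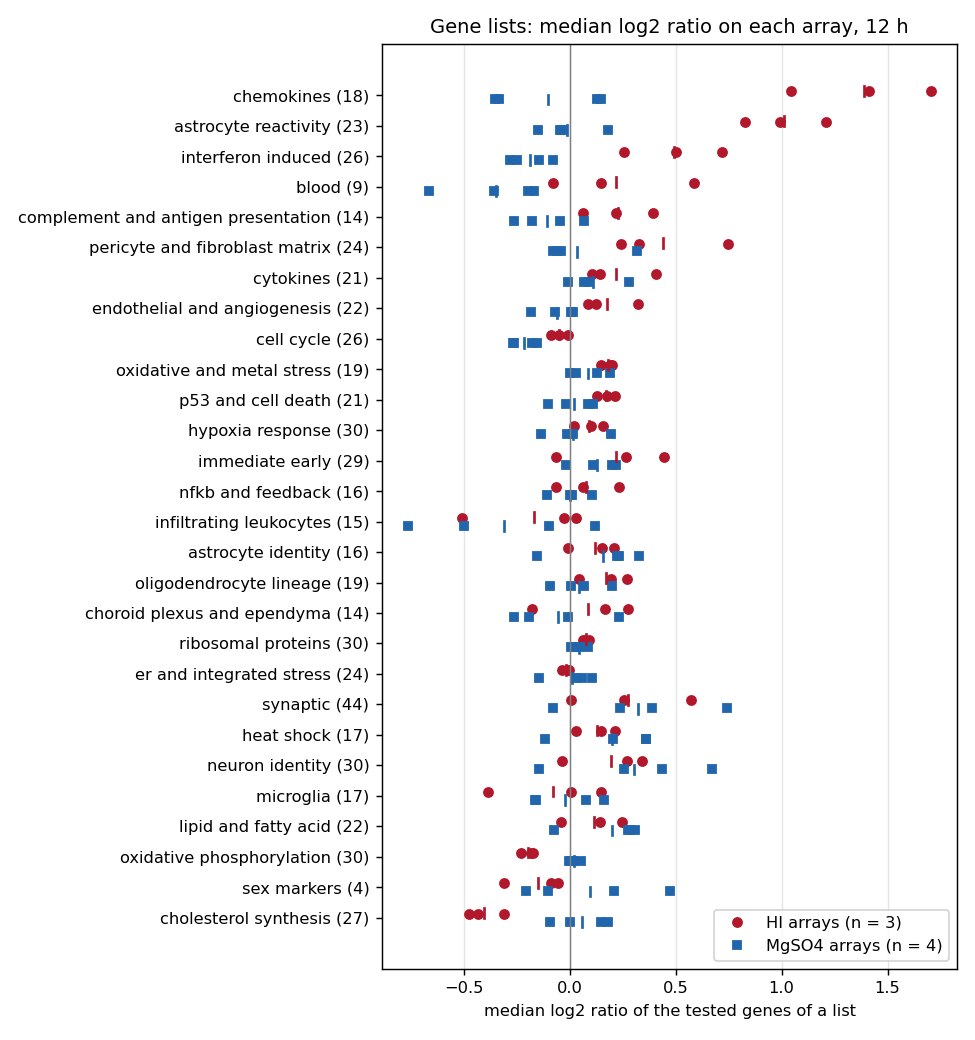
Median log2 ratio of the tested genes of each list on each array (number of tested genes in parentheses), HI arrays as red circles, MgSO4 arrays as blue squares and ticks at the mean of the array values. The chemokine medians of the HI arrays were 1.04, 1.71 and 1.41, all above those of the MgSO4 arrays, and the cholesterol synthesis medians were -0.31, -0.47 and -0.43, all below them.

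Cytokines and their receptors were mixed. Il6 had ratios of 1.47, 4.18 and 3.91 after HI but was above background in Cy5 on only 2 of the 3 arrays and never in Cy3. In Cy5 it was at least 1.99-fold the MgSO4 level. The pyrogen Il1b was above background on the same number of HI arrays and was at least 1.57-fold higher in Cy5. The TWEAK receptor Tnfrsf12a differed by 1.88 and the macrophage growth factor Csf1 by 1.21, and the HI arrays lay above the MgSO4 arrays in both. The oncostatin M receptor Osmr differed by 1.13. Il18 and the nuclear alarmin Il33 had negative differences of -0.81 and -0.75. With the unadjusted p 7 of 21 genes were higher and 2 were lower, and the median difference was 0.26. Il6 and Il1b entered the test through the HI arrays alone. With probes well above background in both channels of all 7 arrays the median was 0.085. The 16 genes of NF-kB and its feedback had a median of 0.082, 1 higher and 1 lower, with 0.83 for Bcl3, 0.75 for Socs3, -0.64 for Nfkb1 and 0.62 for Tnfaip2. Bcl3 was well above background on 1 MgSO4 array in Cy5 and on 0 in Cy3, and its MgSO4 ratios ran from -1.62 to 1.89. Nfkb1 was well above it on 1 HI array in Cy5 and on 0 MgSO4 arrays in Cy3. A second probe of Nfkb1 and of Tnfaip2 had the opposite sign. Genes of complement and antigen presentation had a median of 0.41, with 3 of 14 higher and 1 lower. Cd74, the invariant chain, differed by 1.15, H2-Ab1 by 0.82 and the complement subunit C1qc by 0.67, while H2-Eb1, also of class II, differed by -0.70.

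Immediate early genes, which follow depolarization or stress, had a median difference of 0.096, with 4 of 29 higher with the unadjusted p and 1 lower. Without HI replicate 2 this median was -0.18. Fos had ratios of 2.18, 3.84 and 2.04 after HI against -0.01, 0.24, 0.18 and 0.77, a difference of 2.39 ± 0.43 (adjusted p = 0.179). Atf3 differed by 2.01, Gadd45b by 0.91 and Jun by 0.90, and in all 4 genes the highest HI value was that of replicate 2. Heat shock genes had a median of -0.018, with 0.89 for the small chaperone Hspb1, 0.69 for Hspb8, 0.51 for Bag3 and -0.43 for Hspe1. Genes of the unfolded protein and integrated stress responses had a median of -0.009, with 0.79 for Sesn2, 0.60 for Ppp1r15a, 0.52 for Slc3a2 and -0.49 for Trib3. The 30 tested genes of the hypoxia response, targets of the factor Hif1a among them, had a median of 0.11. With the unadjusted p 2 were higher, against 2.73% of all genes, and none was lower. The vasodilator peptide Adm differed by 0.92, haem oxygenase Hmox1 by 0.84, Plod2 by 0.53 and Hk2, whose probe was not well above background on any MgSO4 array, by 0.50. Without HI replicate 2 the Hk2 difference was -0.002. Of the oxidative and metal stress genes the metallothionein Mt2 differed by 0.79, Gclc by 0.51 and Nqo1 by -0.38, and the median of the 19 genes was 0.13. Of the p53 and cell death genes the death receptor Fas differed by 1.25, Gdf15 (well above background on 1 MgSO4 array in each channel) by 0.87, Cdkn1a by 0.48 and Casp8 by 0.40, with a median of 0.13 over 21 genes.

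Markers of other cells were examined on the same arrays. Microglia genes had a median of -0.056, with none of 17 higher and 2 lower. The purinergic receptor P2ry12, a marker of resting microglia, had ratios of -1.60, -1.15 and -0.48 after HI and between -0.16 and 0.17 after MgSO4, a difference of -1.06 (adjusted p = 0.258). Gpr34 differed by -0.76, Fcrls by 0.54 and Selplg by -0.53. Of 27 markers of infiltrating leukocytes 15 were tested and none passed either threshold. Their median was 0.077, and Cd8a, Ms4a1, Ltf and Mmp8 were not well above background on any of the 7 arrays. The neutrophil genes S100a9 and S100a8 differed by 0.94 and 0.84, with HI ratios of opposite sign between replicates, and Lyz2 and Ly6c1 by 0.53 and 0.40. Genes of blood, mostly globins, had a median of 0.69, with 4 of 9 higher with the unadjusted p. Hba-a2 differed by 0.80 and Hba-a1 by 0.79, Hbb-bs by 0.92 and Hbb-b2 by 0.72. The erythroid marker Epb42 was not well above background on any array and was not tested. The median of the 9 genes was 0.585 on HI replicate 2, 0.146 on HI replicate 3 and -0.080 on HI replicate 1, while the MgSO4 arrays lay between -0.66 and -0.17. Compared by channel, however, the list had a median difference of -0.47 in Cy5 and of -1.06 in Cy3, a sign opposite to that of the ratios. The ratios of the blood genes moved with the group, and their part in the other differences was not tested.

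Vessel and matrix genes had moderate differences. The urokinase receptor Plaur differed by 1.40, the clotting factor Vwf by 0.96 and the junction protein Cdh5 by 0.57, and Thbs1 by -0.52. Vwf had HI ratios of 1.00, 1.21 and 0.80 and MgSO4 ratios of 0, 0.43, -0.04 and -0.20. The endothelial list had a median of 0.24, with 2 of 22 genes higher with the unadjusted p (against 2.73% of all genes). The matrix protein osteopontin, Spp1, had ratios of 1.21, 1.83 and 2.01 after HI and a difference of 1.85 ± 0.41 (adjusted p = 0.249). The basement membrane collagen Col4a1 differed by 1.16 and Ccn1 by 0.86. In the pericyte and matrix list 6 of 24 genes were higher and 1 was lower, with a median of 0.28.

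Genes lower after HI than after MgSO4 were most frequent in the synthesis of cholesterol. None was called, yet 25 of the 27 tested genes of the list had a negative difference. With the unadjusted p 10 were lower, against 2.87% of all genes, and none was higher. For 14 the HI arrays all lay below the MgSO4 arrays, against 7.94% of all genes. The median difference was -0.53, and it stayed between -0.60 and -0.38 under the other processing of the ratios and between -0.57 and -0.43 when each array was left out in turn. Idi1, which isomerizes isopentenyl diphosphate, had ratios of -1.47, -1.17 and -1.07 on the HI arrays and of 0.09, 0.09, -0.03 and -0.02 on the MgSO4 arrays. The difference was -1.26 ± 0.15 (adjusted p = 0.0658). When probes were required to be well above background in both channels of all 7 arrays, Idi1 was called lower (adjusted p = 0.0337).

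Along the pathway, the early enzyme Hmgcs1 differed by -0.67, Mvk by -0.72 and Mvd by -0.79. Msmo1, which removes methyl groups from the sterol ring, had ratios of -0.93, -0.93 and -0.80 after HI against 0.07, -0.19, 0.0046 and 0.0099, a difference of -0.86 ± 0.14 (adjusted p = 0.156). The HI arrays of Msmo1 lay closer together than its MgSO4 arrays. Fdps and Fdft1 differed by -0.48 and -0.42, the epoxidase Sqle by -0.86 and Cyp51 by -0.66. Of the late steps Ebp differed by -0.61 and Sc5d by -0.53, while Dhcr7 differed by 0.19. The sterol carrier Stard4 differed by -0.92 and the sterol sensor Insig1 by -0.59, and the transcription factor Srebf2 by -0.43. The ratio of Stard4 was -0.66, -0.70 and -0.68 on the HI arrays. A second probe of Stard4 was low in both sets, with means of -0.89 after HI and -0.67 after MgSO4, and differed by -0.22. Second probes of Mvk and Srebf2 differed by -0.20 and -0.09. Of 19 promoters found for the list, 1 (5.26%), that of Hmgcs1, held TCAC, any base and CCAC, a form of the sterol response element, on either strand, against 1.24% of all promoters.

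**Figure D3:**
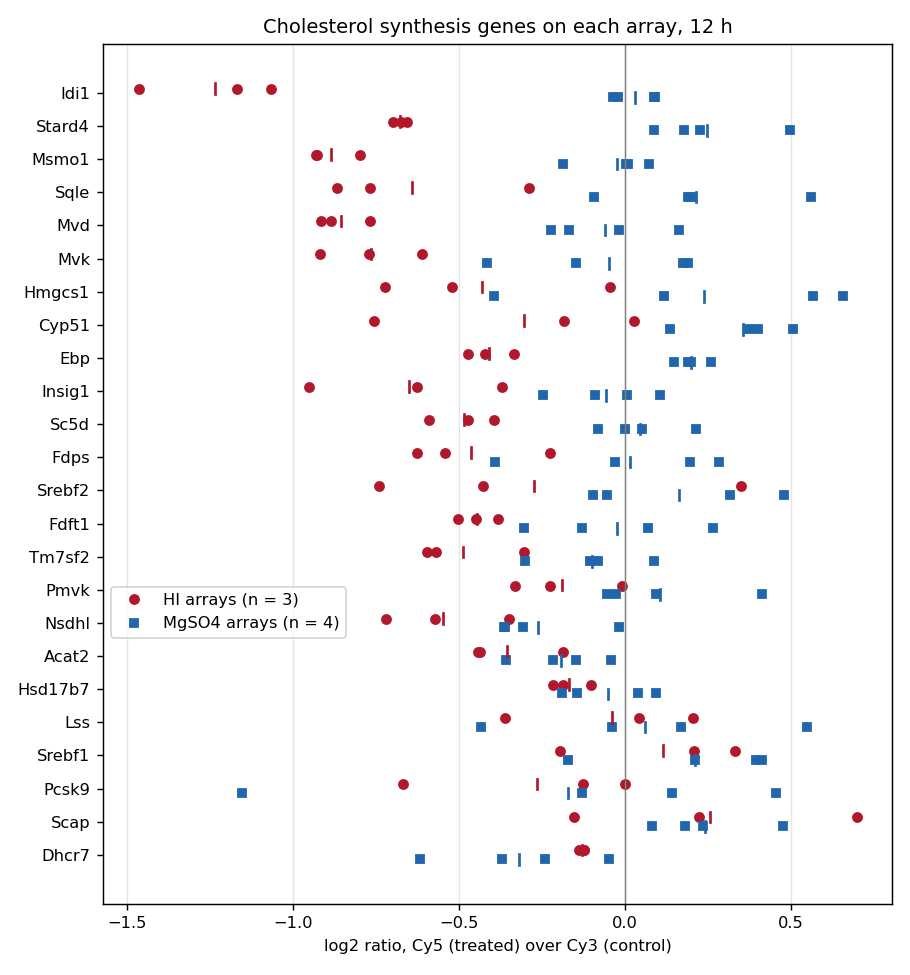
Log2 ratios of 24 of the 27 cholesterol synthesis genes on each array, ordered by the difference, HI arrays as red circles, MgSO4 arrays as blue squares and ticks at the means. The HI arrays lay left of the MgSO4 arrays without overlap for 12 of the genes shown, among them Idi1 (difference -1.26), and Dhcr7 was on the other side (0.19).

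Other lipid genes were less uniform, with a median of -0.083 over 22 genes. The acyl-CoA synthetase Acsl3 differed by -0.78 and the citrate lyase Acly by -0.63, while the droplet coat protein Plin2 differed by 0.90 and the carnitine acyltransferase Cpt1a by 0.49, with 1 other probe of the opposite sign. Subunits of the respiratory chain had small differences. Of these genes 26 of 30 had a negative difference, 12 had HI arrays all below the MgSO4 arrays (against 7.94% of all genes), and the median was -0.21. Their differences were mostly under 1.5-fold, and 1 passed the unadjusted threshold with that fold. Ndufa4 differed by -0.65, Cox6c by -0.54, Ndufa8 by -0.51 and Ndufa1 by -0.49. Ribosomal protein genes, also highly expressed, had a median of 0.003, with -0.61 for Rps14, -0.46 for Rpl32, -0.28 for Rps3 and 0.25 for Rpl13, 1 probe of which had the opposite sign.

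Neuronal genes had medians near 0. The median difference was -0.049 over 30 genes of neuron identity and -0.013 over 44 synaptic genes, with none of the former and 4 of the latter lower with the unadjusted p and none higher. When each array was left out in turn, the synaptic median ran from -0.24 to 0.19. Nefh differed by -0.66, Pvalb by -0.61, Calb1 by -0.43 and Nefm by -0.40. The presynaptic scaffold Pclo had ratios of 0, -0.76 and -0.46 after HI and of 0.43, 0.55, 0.32 and 0.74 after MgSO4, a difference of -0.92. For Nefh, Pclo and Nrxn3, 1 other probe had the opposite sign. The adhesion protein Nrxn3 differed by -0.62, whereas the NMDA receptor subunit Grin2b had a difference of 0.63, with ratios of 1.57, 1.08 and 0.48 against -0.09, -0.04, 0.61 and 1.20. Oligodendrocyte genes had a median of 0.019, with 0.50 for Cldn11, -0.30 for Cspg5 and 0.27 for Fyn. Cell cycle genes had a median of 0.15, with 0.66 for H1f5, 0.59 for Ube2c, 0.47 for Mcm5 and 0.46 for Mcm2. Genes of choroid plexus and ependyma had a median of 0.007, with 0.91 for Aqp1, -0.85 for Kcne2 and -0.74 for Tmem212. Slc4a5 was well above background in Cy5 on 2 HI arrays and on no MgSO4 array, and in Cy3 on no HI array and 1 MgSO4 array. In Cy5 its level was at least 1.56-fold higher in HI samples. The sex-linked genes Uty, Eif2s3y, Ddx3y and Xist differed by -0.54, -0.39, 0.22 and -0.15, and their median was -0.27.

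Some probes had a large ratio in both sets. Control was in Cy3 on all 7 arrays, so a response shared by both treatments and a bias of the probe toward one dye cannot be told apart. Of 1042 genes with a mean HI ratio of at least 1.5-fold above control, 284 (27.3%) had such a mean on the MgSO4 arrays too, against 4.58% of all genes tested. Of 607 genes as far below control after HI, 20 (3.29%) were as far below it after MgSO4, against 0.793% of all genes. The elastase gene Cela2a had ratios of 1.66, 2.43 and 3.68 after HI and of 3.95, 2.16, 2.51 and 3.55 after MgSO4, and the difference was -0.45 (adjusted p = 0.808). The chemosensory receptor genes Vmn1r236 and Olfr160, the keratin gene Krt78, Gpr35 and Gm12886 behaved likewise, with differences of -0.81, 0.02, -0.13, -0.20 and -0.75. In Cy3 these 6 probes were not well above background on any HI array, and on at most 1 MgSO4 array. A second probe of Gpr35 had the opposite sign. The genes with negative ratios on all 7 arrays had HI means of -1.01 for Ska1, -0.76 for Plscr5, -0.76 for Klk13, -0.96 for Speer5-ps1, -0.64 for the agouti gene a and -0.68 for Rita1. Ratios of the same sign on all 7 arrays were found for 833 positive and 694 negative genes of 14726 with a value on each.

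**Figure D4:**
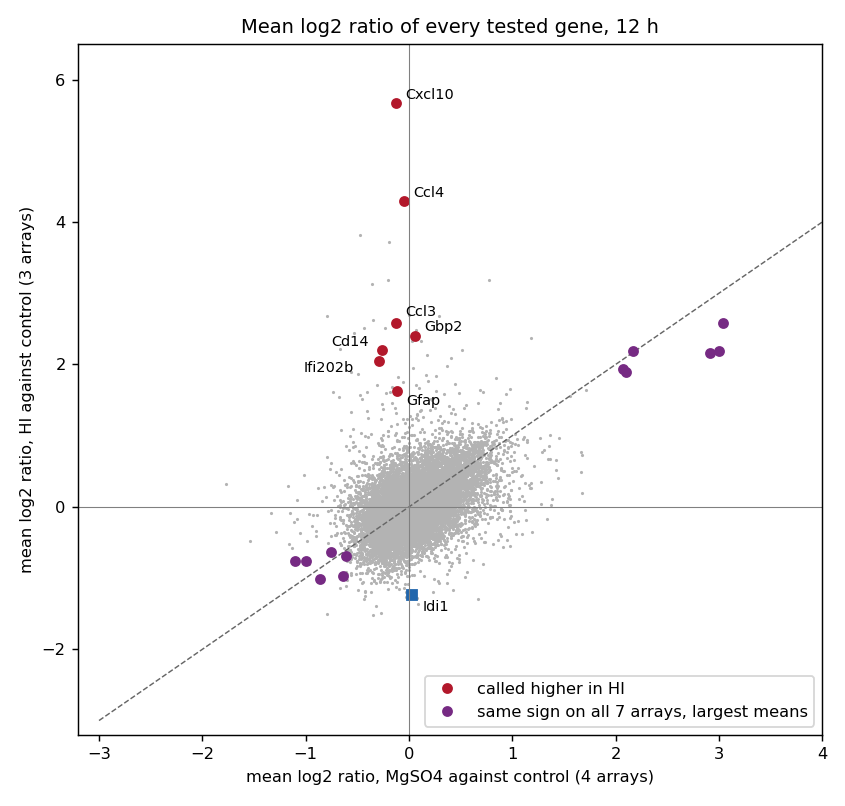
Mean log2 ratio of each tested gene on the 4 MgSO4 arrays (x axis) and on the 3 HI arrays (y axis), with the line of equal means dashed. The 7 called genes (red) lay near 0 on the x axis with HI means of 1.63 to 5.67, the purple genes, of the same sign on all 7 arrays, lay closer to the dashed line, and Idi1 (blue) had an HI mean of -1.23.

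Each channel was also compared alone between the sets, as log2 signal minus the 75th percentile of the array. In Cy5, 2335 genes were higher (15.8%) and 2425 lower (16.4%) in HI than in MgSO4 samples by the adjusted threshold. In Cy3, which held controls in both sets, 2360 genes were higher (16.0%) and 2087 lower (14.1%). The controls of the sets thus differed by 4447 genes and the treated samples by 4760. The direction depended on the scaling: with quantile normalization 2748 were higher and 1851 lower in Cy5 and 2824 and 1552 in Cy3, while median signals without background subtraction gave 1641 and 2886 in Cy5 and 1695 and 2884 in Cy3. Without HI replicate 3 the Cy3 count was 1972 in all. Gbp2 differed by 2.36 in Cy5 and by 0.01 in Cy3, and Ccl4 by 4.15 and -0.22, so for both the difference in the treated channel was close to the difference of ratios. Ccl3 differed by 4.12 in Cy5 and by 1.40 in Cy3, and Cd14 by 1.62 and -0.86. Ccl7 differed by 1.39 in Cy5 and by -1.56 in Cy3, and Ccl9 by 0.30 and -2.17, and for Ccl9 the larger part was in the controls. The globin gene Hbb-bs differed by -1.22 in Cy5 and by -2.16 in Cy3, a sign opposite to that of its ratios. Idi1 differed by -1.29 and -0.03, and Msmo1 by -0.75 and 0.10. Other genes of cholesterol synthesis differed more in the controls: Stard4 by -0.22 in Cy5 and 0.69 in Cy3, Mvk by -0.075 and 0.63, Fdps by -0.0068 and 0.46, Cyp51 by -0.16 and 0.49, and Ebp by -0.19 and 0.41. The median of that list was -0.28 in Cy5 and 0.055 in Cy3, against -0.53 for the ratios. Acsl3 differed by 0.68 in Cy5 and 1.45 in Cy3, and Nefh by 1.62 and 2.26. Of the 402 genes higher with the unadjusted p, 270 (67.2%) were at least 1.5-fold higher in Cy5 alone as well, and of the 424 lower genes 172 (40.6%) were as far lower.

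**Figure D5:**
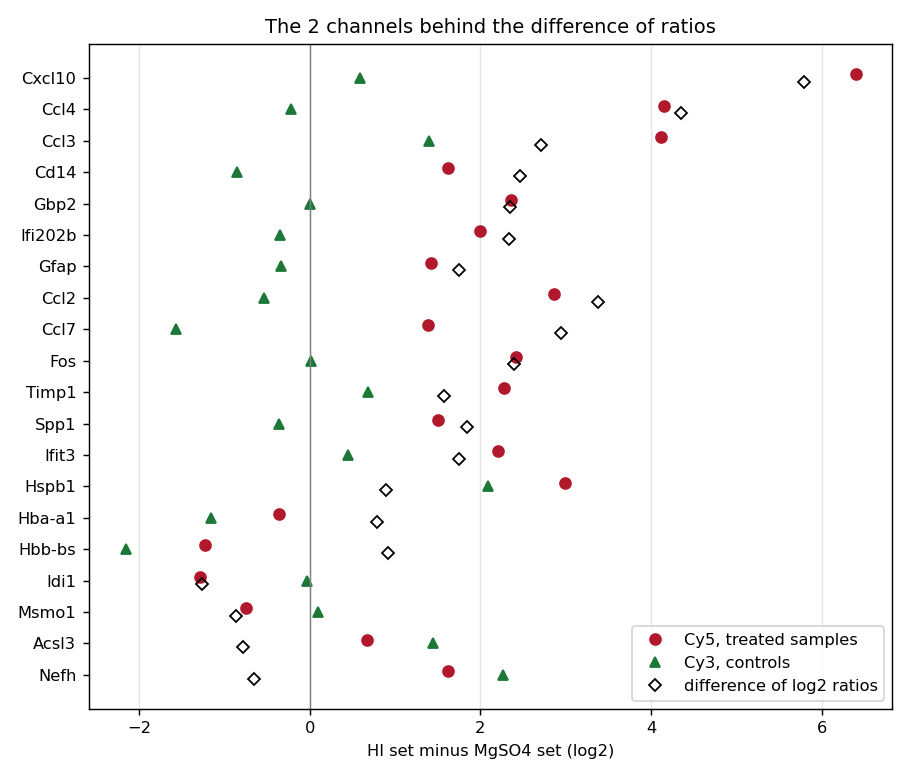
Difference between the HI set and the MgSO4 set (log2) in Cy5 (treated samples, circles), in Cy3 (controls, triangles) and in the log2 ratio (diamonds). For Gbp2, Fos and Idi1 the Cy3 difference was near 0, while for Hspb1 both channels were higher in the HI set, by 2.99 and 2.09, and the ratios differed by 0.89.

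Each set was also tested against 0 in a fit of its own. Because control was in Cy3 on every array, a bias of a probe toward one dye does not cancel here. Such a bias and a treatment effect cannot be told apart in these counts. In the HI set 2 of 14602 genes were called higher (0.0137%) and none lower (0%). These were Ccl4 and the inhibitory receptor Lilrb4a, with ratios of 3.38, 4.25 and 3.81, and 4073 genes had an unadjusted p under 0.05. With that p and 1.5-fold, 948 genes were above 0 (6.49%) and 566 below (3.88%). Leaving out HI replicate 1, 2 or 3 gave 386, 20 or 2539 calls, so this count rested on single replicates. Lilrb4a was not above background in Cy3 on any HI array, nor in Cy5 on any MgSO4 array, and it was at least 9.99-fold its own controls in the HI samples. In the MgSO4 set none of 13860 genes was called in either direction (0%) by limma, nor by the methods' t-test after adjustment, while 2202 had an unadjusted p under 0.05. With 1.5-fold 445 genes were above 0 (3.21%) and 66 below (0.476%). Whether the sets differ in the number of called genes was not tested.

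Of the genes that the study names as candidate regulators, Ccl2, given above, differed by 3.38, and the 5 below had smaller differences. The study inferred such regulators from the genes downstream of them, so their own RNA is not a measure of that claim. It reported no change of Rictor and Fmr1 RNA in any group, nor of Mknk1 RNA by MgSO4. The kinase Mknk1 differed by -0.03, the nuclear receptor Ppara by 0.02 and the mTORC2 subunit Rictor by 0.21. The RNA-binding protein Fmr1 had ratios of -0.12, -0.28 and -0.34 after HI and of 0.03, 0.13, 0.18 and 0.30 after MgSO4, a difference of -0.40 (adjusted p = 0.347). For Fmr1 and Ppara, 1 other probe had the opposite sign. The deacetylase Sirt1 had ratios of -0.12, -0.40 and -0.40 against 0.33, 0.06, 0.06 and 0.31, a difference of -0.50 (adjusted p = 0.309), without overlap of the groups. Casr, Ifng and Il4 were not well above background on any array and were not tested.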

How the data were processed

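RNA of 7 Agilent whole mouse genome arrays (2 colours) was analysed: 3 HI and 4 MgSO4 arrays at 12 h, grouped by their titles. The authors extracted the deposited spot intensity values with Agilent Feature Extraction 10.5.1.1, which subtracts background and normalizes the dyes; the deposited series table and LogRatio hold log10 ratios of Cy5 over Cy3, equal on all spots (100%), centring otherwise unstated, with medians of 0. The genome build of the probe design was not given in the sources used here. The log2 ratio of the processed signals was taken per spot (exactly 0 on 0.309% to 0.567% of spots, where the rounded signals were equal), outlier spots were left out, and spots of a probe were averaged. Of 39429 probes 27427 matched 1 RefSeq symbol. A probe entered the test where the extraction flagged it well above background, in Cy3 or Cy5, on 2 or more HI or 3 or more MgSO4 arrays (19143 probes). The brightest probe stood for a gene. The main test was a 2-group fit in limma 3.58.1 (R 4.3.3), adjusted over all probes by Benjamini-Hochberg and called at 0.05 and 1.5-fold. Each set was also fitted against 0, and each channel alone. Where a probe was not well above background on any array of a group, "at least" folds were set against the lowest signal well above background on each array, after Aquantile normalization. Those between HI and MgSO4 samples in Cy5 leave out the Cy3 controls, so differences between the 2 sets of arrays do not cancel in them. Scripts were tested on simulated data. The 28 gene lists and the comparison were chosen with earlier results of these data known. Genes named were the called ones, up to 4 of each list by size of difference, 6 of each sign with the largest ratio shared by all 7 arrays, and 9 genes of interest; the rule for called genes within 0.3 of 0 after HI gave none, and 26 further genes were named after their values were seen. Some genes are not reported here. The motifs were chosen in the same way.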

Additional observations from a re-analysis of the deposited data

Results flagged for a closer look

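Among the 4 MgSO4 arrays, 1 array lay far from the other 3 by Dixon's test in 9 of 183 genes and list medians examined, and chance flags about 1 in 20. Replicate 1 stood out for Gfap, at 0.215 against -0.272, -0.222 and -0.192. Replicate 2 stood out for Hspe1 (0.394), Ndufa1 (0.349) and Stat2 (0.438), and for the median of the lipid and fatty acid genes (-0.074, against 0.276 to 0.310). Replicate 3 stood out for Slc1a2 (0.908). Replicate 4 stood out for Gdf15 (1.319) and Slc4a5 (0.222). Gdf15 was well above background on 1 MgSO4 array in each channel, and Slc4a5 on none in Cy5 and 1 in Cy3, so these are mostly ratios of background. Replicate 4 also stood out for the median of the pericyte and matrix genes (0.320, against -0.081 to -0.040).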

How the results depend on the processing

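The direction of the 7 called genes held in each alternative in which they were tested, but the count of called genes did not. Against 7, it was 120 with normexp and loess, 27 without background subtraction and 1 with arrays scaled to the same spread. It was 0 with an intensity trend in eBayes, 2 with scan day as a random block and 4760 in Cy5 alone. A plain t-test between the 2 groups gave 560 without adjustment and 4 with it. Array weights gave 1838, but they did not converge and gave HI replicate 2 a weight of 79.5 against 0.291 to 1.29 for the others. Averaging the 2 HI arrays of one slide, chosen after seeing the data, gave 2, and slide as a random block could not be fitted. Leaving out single arrays gave 0 to 12. Gbp2, Ccl4, Ccl3 and Cxcl10 were not tested when probes had to be well above background in both channels of all 7 arrays. Centring, the filters, outlier spots and the authors' series table gave 5 to 7. Against 0, the HI count of 2 became 327 with normexp, 461 without background subtraction and 0 without the filter. It was 743 and 0 by the methods' t-test against 0 before and after adjustment, and 20 to 2539 leaving out single arrays. The MgSO4 count of 0 became 32, 62 and 170 with normexp, without background subtraction and by the unadjusted t-test. Cy5 and Cy3 counts ran from 3244 to 4600 and from 1972 to 5066 leaving out single arrays. The cause of these shifts was not tested.

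The replicate numbers only name the pools: same-numbered arrays had residual correlations of -0.15, -0.085 and -0.218, and no sample correlated best with its own number. With the replicate number as a block 0 genes were called (1148 at an unadjusted p under 0.05).

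Among differences of named genes, 3100 pairs of gene and alternative kept their direction and side of the threshold, and 81 reversed. Differences reversed in Cy5 alone for Trib3 (1.029), S100b (0.502), Aldoc (0.045), Selplg (0.096), S100a8 (-0.388), Lyz2 (-1.792), Cspg5 (0.123), Nefh (1.618), Nefm (0.867), Grin2b (-0.093), Acsl3 (0.676), H1f5 (-0.354), Rpl13 (-0.446), Hbb-bs (-1.225), Hba-a2 (-0.07), Hba-a1 (-0.359), Hbb-b2 (-1.117), Kcne2 (0.818), Tmem212 (0.712), Uty (0.432), Ddx3y (-0.157), Olfr160 (-0.946), a (-0.86), Rictor (-0.769), Ppara (-1.427), Cxcl12 (0.24), Il33 (1.311), Dhcr7 (-0.344). Differences reversed with normexp for Xist (0.036), Cela2a (0.094), Gm12886 (0.153), Krt78 (0.102), Gpr35 (0.161), Plscr5 (-0.111), Klk13 (-0.104), a (-0.01). Differences reversed with array weights for Xist (0.144), Olfr160 (-0.55), Plscr5 (-0.12), Klk13 (-0.321), Ppara (-0.054). Differences reversed without background subtraction for Olfr160 (-0.009), Gm12886 (0.054), Krt78 (0.08), Gpr35 (0.089), Plscr5 (-0.114), Klk13 (-0.099), Speer5-ps1 (0.017), Mknk1 (0.013), Ppara (-0.02). Differences reversed with scaled arrays for Olfr160 (-0.247), Ppara (-0.017). Differences reversed with the HI arrays of one slide averaged for Olfr160 (-0.079), a (-0.001). Differences reversed with the replicate block for a (-0.071), Ppara (-0.059). Leaving out single arrays, the differences that reversed ran from -0.002 to 0.901 for Hk2, from -0.387 to 0.06 for Xist, from -0.999 to 0.011 for Cela2a, from -0.519 to 0.325 for Olfr160, from -0.949 to 0.671 for Krt78, from -0.481 to 0.015 for Gpr35, from -0.317 to 0.061 for Ska1, from -0.111 to 0.416 for Plscr5, from -0.637 to 0.14 for Speer5-ps1, from -0.071 to 0.36 for a, from -0.254 to 0.089 for Rita1, from -0.196 to 0.092 for Mknk1, from -0.059 to 0.158 for Ppara.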
